A study of Mus musculus with 12 samples.

Results

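The genes described here are 9 components of the interleukin-10 (IL-10) response: the ligand gene Il10, the receptor chains Il10ra and Il10rb, the kinases Jak1 and Tyk2, the transcription factor Stat3, and Socs3, Bcl3 and Il4ra, which IL-10 induces in macrophages. They were chosen by name, and their rows were read out of a table of 24781 gene symbols. All 9 had at least 1 molecule in some library, as did 13815 symbols in all. Of the 9580 genes that passed the filter on low values (a mean above 1 normalised molecule over all libraries), 8 were members, and Il10 was not.

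Libraries came from wild-type mice that carried intradermal tumours of MC38, a mouse colon adenocarcinoma line. The reporting summary of the study gives C57BL/6J or C57BL/6N for wild-type mice. It gives both sexes and 2 to 5 months of age for the study as a whole, not for these libraries. Mice in one group were injected with picrotoxin, which blocks ionotropic GABA type A receptors, at 40 µg per mouse into the peritoneum from 1 day before tumour inoculation and every other day after it. Mice in the other group received its solvent, DMSO. On day 7, 100 macrophages positive for CD45 and CD11b and high for F4/80 were sorted from a tumour for each library, and 6 DMSO and 6 picrotoxin libraries were sequenced with molecular barcodes, so that each count is a barcoded molecule. The methods give 1 library per mouse, whereas a figure text gives n = 6 from 4 mice. Sample sizes below therefore count libraries. All cells came from animals with intact Il10 and Stat3, and the drug was given to the whole animal rather than to macrophages. In bulk libraries of this kind, fewer cells of a type and less RNA per cell cannot be told apart.

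IL-10 is a cytokine that restrains the inflammatory output of macrophages, which both make it and respond to it. It is bound by the chain encoded by Il10ra, which is specific for IL-10, together with the chain encoded by Il10rb, which is shared with receptors of related cytokines. The kinases JAK1 and TYK2 sit on the receptor tails and phosphorylate STAT3, which then enters the nucleus and switches on target genes. Activity in this pathway is carried by phosphorylation of proteins, which transcript counts do not measure.

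Library totals ran from 201697 to 309617 molecules. All 10 macrophage markers were detected in both groups, at a summed 0.824 to 1.16% of molecules in DMSO and 0.990 to 1.11% in picrotoxin libraries. Summed markers of other immune cells were at or near 0 in every library, with at most 7 molecules for neutrophils (S100a9 and Ly6g at 0), 7 for dendritic cells (Flt3 at 0), 3 for T and NK cells (Cd3e and Cd8a at 0) and 3 for B and plasma cells (Ms4a1 and Jchain at 0). Epithelial markers of the tumour line had 8 to 14 molecules in DMSO libraries and 8 to 21 in picrotoxin libraries. Their mean share was 0.00426% in DMSO and 0.00671% in picrotoxin libraries, with Epcam, Krt18, Krt19 and Cldn4 at 0. The 12 fibroblast and matrix markers were unevenly spread, at 17 to 820 molecules (0.00728 to 0.296%) in DMSO and 10 to 57 molecules (0.00440 to 0.0253%, Lum and Postn at 0) in picrotoxin libraries, with the most in DMSO replicates 5 and 3. Replicates 1 and 2 of both groups also stood apart from replicates 3 to 6: with that split as a term beside treatment, edgeR gave 99 of 9580 genes an adjusted p under 0.05 (1.03%), of which 0 were members, and 2 members, Socs3 and Bcl3, had an unadjusted p under 0.05, both with higher estimates in replicates 1 and 2, against 9.69% of all tested genes. Where leaving out a set of libraries moved a member's estimate by over 1.5 times, the value without it is given below.

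Socs3 encodes an inhibitor of cytokine signalling and is a textbook STAT3 target. STAT factors bind a palindrome in which TTC and GAA are separated by a short gap, and the Socs3 promoter is printed here because it was the only member promoter in which these letters were found. RefSeq promoters (GRCm38.p6, 250 bases before to 50 after the gene start) were matched for 6 of the 9 members, namely Jak1, Tyk2, Stat3, Socs3, Bcl3 and Il4ra. The Socs3 window covers chr11:117969317-117969616 on the minus strand, inside the GENCODE limits of the gene, whose start differs from that of RefSeq. Capitals mark the match, whose first base lies at -154 from the start:
Socs3: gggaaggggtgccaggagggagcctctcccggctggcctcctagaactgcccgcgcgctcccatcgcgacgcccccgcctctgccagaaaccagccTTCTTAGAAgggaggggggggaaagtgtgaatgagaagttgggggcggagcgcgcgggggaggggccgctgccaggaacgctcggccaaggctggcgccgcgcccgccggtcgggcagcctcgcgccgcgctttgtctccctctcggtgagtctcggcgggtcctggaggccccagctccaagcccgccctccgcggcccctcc
The form searched was TTCNNNGAA, which reads the same on both strands and was held by 8.33% of 32544 distinct promoters of that length. A form with a gap longer by 1 base, TTCNNNNGAA, was held by 6.98% of them and by none of the 6 member promoters. A match of letters is a description of the window and does not show binding.

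Il10 was nearly undetected at this depth. The gene (GRCm38, chr1:131019845-131024974, plus strand, protein coding) had 4 molecules in DMSO replicate 6 and 0 in the other 11 libraries. The 4 molecules were 0.00129% of that library (95% Wilson interval, 0.000502 to 0.00332%). With 0 counted, a share as high as 0.00108% (3 molecules) is allowed in the largest and 0.00149% in the smallest of these 11 libraries, and the upper Wilson limits of their zeros were 0.00139 and 0.00190%. These limits cover counting error only. Il10 therefore did not pass the filter for testing, no fold is given, and a difference between the groups was not detectable at this depth.

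**Figure D1:**
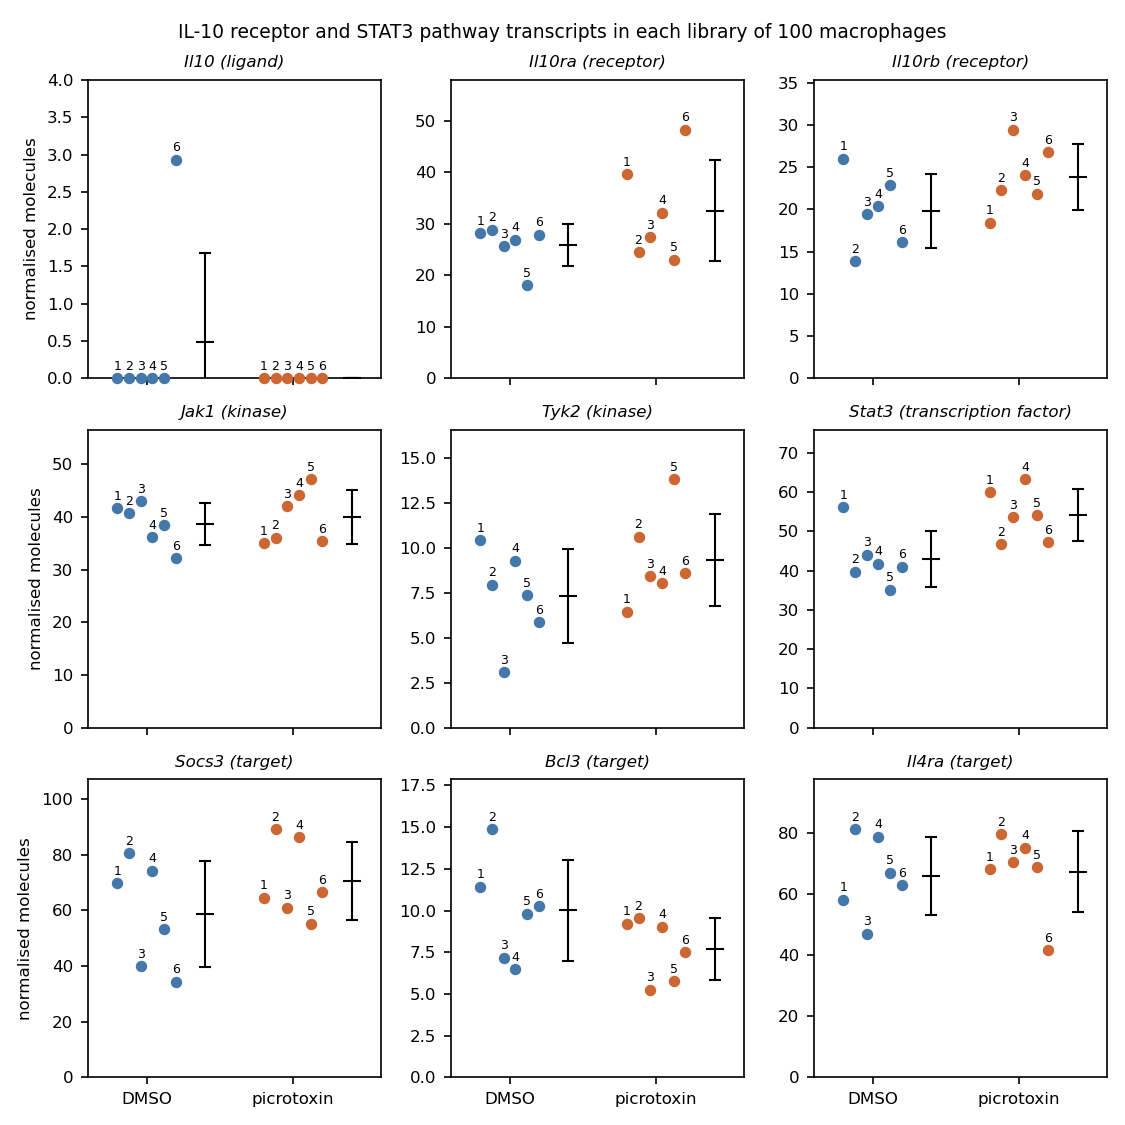
Normalised molecules (counts divided by size factors) of the 9 members in each of the 12 libraries, DMSO in blue and picrotoxin in orange, with replicate numbers beside the points and the mean and SD of each group as a bar (n = 6). Stat3 is the member whose groups are most nearly separate: 5 of 6 DMSO libraries lie below the lowest picrotoxin library, at 46.7.

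In contrast to the ligand, transcripts for every step downstream of it were found in all 12 libraries. Levels were ranked between genes per kilobase of exon sequence. Oligo-dT priming favours 3′ ends, so that molecules need not scale with length, and the ranking holds only on this scale. The ratios between members given further below are of molecules, without division by length. In DMSO libraries Socs3 was highest per length, at 20.3 ± 6.57 normalised molecules per kb (SD, n = 6). It was followed by Il4ra at 11.0 ± 2.15 and Il10ra at 7.40 ± 1.15 per kb. Jak1 (5.35 ± 0.552), Il10rb (5.20 ± 1.16), Stat3 (4.51 ± 0.746) and Bcl3 (4.05 ± 1.23) came next, each within 1 SD of its neighbour. Tyk2 stood lower, at 1.07 ± 0.379 per kb. Picrotoxin libraries differed in the order of the middle genes, with Stat3 (5.68 ± 0.696 per kb) above Jak1 (5.53 ± 0.717) and below Il10rb (6.25 ± 1.02). Among these genes neighbours were again within 1 SD, whereas Bcl3 stood lower, at 3.12 ± 0.752 per kb. Without division by length the order differed. DMSO means were 66.0 ± 12.9 normalised molecules for Il4ra, 58.6 ± 19.0 for Socs3, 43.0 ± 7.11 for Stat3 and 38.7 ± 3.99 for Jak1 (SD, n = 6).

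No member passed the test between picrotoxin and DMSO after adjustment over all genes. By edgeR, 0 of the 8 tested members had an adjusted p under 0.05, in a table where 5 of 9580 genes did (0.0522%), and DESeq2 and limma-voom likewise called 0 members. At an unadjusted p under 0.05, 1 member, Stat3, passed by edgeR, against 7.77% of all tested genes in either direction and 3.65% in the higher direction. In no member did the groups fail to overlap, which 37 of all tested genes did (0.386%). The fitted log2 fold change was above 0 for 7 of the 8 members, with a median of 0.28, against 4709 of 9580 genes (49.2%) and a median of -0.01 over all tested genes. With library totals in place of TMM, Il4ra turned. These counts describe the members and are no test of the group. For single genes an exact two-sided permutation test on log2 CPM over all 924 assignments of libraries to the groups is given beside the fit, and its smallest possible p is 0.00216.

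The receptor chains were considered first. Il10ra (chr9:45253837-45269149, minus strand) had 18.0 normalised molecules in the lowest, 27.4 at the median and 28.8 in the highest DMSO library, and 23.0, 29.7 and 48.2 in picrotoxin libraries. Means were 25.9 ± 4.01 and 32.5 ± 9.80 (SD, n = 6), a log2 fold change of 0.35 (95% interval, -0.02 to 0.72; adjusted p = 0.686 in edgeR, exact permutation p = 0.184). Picrotoxin replicates 6, 1 and 4 lay above every DMSO library, and the other 3 lay within the DMSO range. The spread in picrotoxin libraries was 30.2% of the mean, against 15.5% in DMSO libraries. The estimate was 0.20 without picrotoxin replicate 6, where Il10ra was highest, 0.21 with the matrix marker score as a covariate and 0.23 without DMSO replicates 3 and 5. It was 0.43, 0.42 and 0.40 without picrotoxin replicate 5, 2 or 3, the picrotoxin libraries in which Il10ra was lowest. Leaving out a low picrotoxin library raises the estimate, and in each of these fits the unadjusted p in edgeR was under 0.05.

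Il10rb (chr16:91406164-91425834, plus strand) had 13.9, 19.9 and 26.0 normalised molecules in the lowest, median and highest DMSO library, and 18.4, 23.2 and 29.4 in picrotoxin libraries. Its log2 fold change was 0.28 (95% interval, -0.10 to 0.65; adjusted p = 0.768 in edgeR, exact permutation p = 0.115). The groups overlapped over most of their ranges. Il10rb transcripts share segments of at least 50 bases at 98% identity or more with transcripts of 276 other genes, and an exon overlaps Gm21970 on the same strand, so its count is uncertain. Within a library there were 1.38 ± 0.458 Il10ra molecules per Il10rb molecule in DMSO and 1.39 ± 0.482 with picrotoxin (SD, n = 6), a ratio that does not depend on scaling.

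Of the kinases, Jak1 lay near the DMSO level and Tyk2 was too sparse for a precise estimate. Jak1 (chr4:101152367-101265282, minus strand) had 32.2, 39.6 and 43.0 normalised molecules in the lowest, median and highest DMSO library and 35.02, 39.1 and 47.2 in picrotoxin libraries. Its log2 fold change was 0.06 (95% interval, -0.22 to 0.35; adjusted p = 0.954 in edgeR, exact permutation p = 0.595), and 3 picrotoxin libraries lay on either side of the DMSO mean. In replicates 3 to 6 alone the Jak1 estimate was 0.20, and in replicates 1 and 2 the log2 ratio of the means was -0.21, with no test. It was 0.01 with library totals in place of TMM, and 0.01 to 0.10 with single libraries left out. Tyk2 (chr9:21104068-21131243, minus strand) was counted with 3 to 12 molecules per library. It had 3.07, 7.65 and 10.4 normalised molecules in the lowest, median and highest DMSO library and 6.45, 8.49 and 13.8 in picrotoxin libraries, a log2 fold change of 0.34 (95% interval, -0.24 to 0.93; adjusted p = 0.839 in edgeR, exact permutation p = 0.214). The Tyk2 estimate was 0.59 in replicates 3 to 6 alone, 0.16 without DMSO replicates 3 and 5, 0.22 with the matrix marker score, 0.20 without DMSO replicate 3 and 0.21 without picrotoxin replicate 5. At such low counts, changes inside this interval could not be resolved. Jak1 overlaps an exon of Raver2 and Tyk2 one of 1700084C06Rik on the opposite strand, and whether counting used strand is not given in the sources used here.

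Stat3, the factor that carries the IL-10 signal to the nucleus, was the member with the smallest p. The gene (chr11:100885098-100939540, minus strand) had 35.2, 41.4 and 56.2 normalised molecules in the lowest, median and highest DMSO library, and 46.7, 53.8 and 63.2 in picrotoxin libraries. All 6 picrotoxin libraries lay above the DMSO mean, and DMSO replicate 1 was the one DMSO library inside the picrotoxin range. Means were 43.0 ± 7.11 and 54.1 ± 6.63 (SD, n = 6). The fitted difference was 0.35 on the log2 scale (SE 0.14; 95% interval, 0.07 to 0.63), a ratio of 1.28 (1.05 to 1.55). Its p by edgeR was 0.0148, with an adjusted p of 0.495. DESeq2 likewise gave an unadjusted p under 0.05 and no adjusted one, and the exact permutation test gave p = 0.0195. Stat3 thus met an unadjusted threshold and did not pass over all genes. There were 1.12 ± 0.173 Stat3 molecules per Jak1 molecule in DMSO and 1.37 ± 0.193 with picrotoxin (SD, n = 6). Stat3 overlaps an exon of Stat5a on the opposite strand and shares a segment of 60 bases with Morf4l1 and Tmco3.

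Stat3 was also fitted with allowance for the libraries rich in matrix transcripts. With the matrix marker score as a covariate the log2 fold change was 0.28 (adjusted p = 0.888 in edgeR), and with DMSO replicates 3 and 5 both left out it was 0.29 (adjusted p = 0.9005 in edgeR). In neither fit was the unadjusted p under 0.05. In edgeR the unadjusted p was 0.0469 without DMSO replicate 5 alone and 0.0183 without DMSO replicate 3 alone. In replicates 3 to 6 alone the log2 fold change was 0.45 (SE 0.16; adjusted p = 0.308 in edgeR). In replicates 1 and 2 the log2 ratio of the group means was 0.15, a value with no test. Whether those sets of libraries differ in the size of the difference was not tested, nor was the part of matrix transcripts in it.

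**Figure D2:**
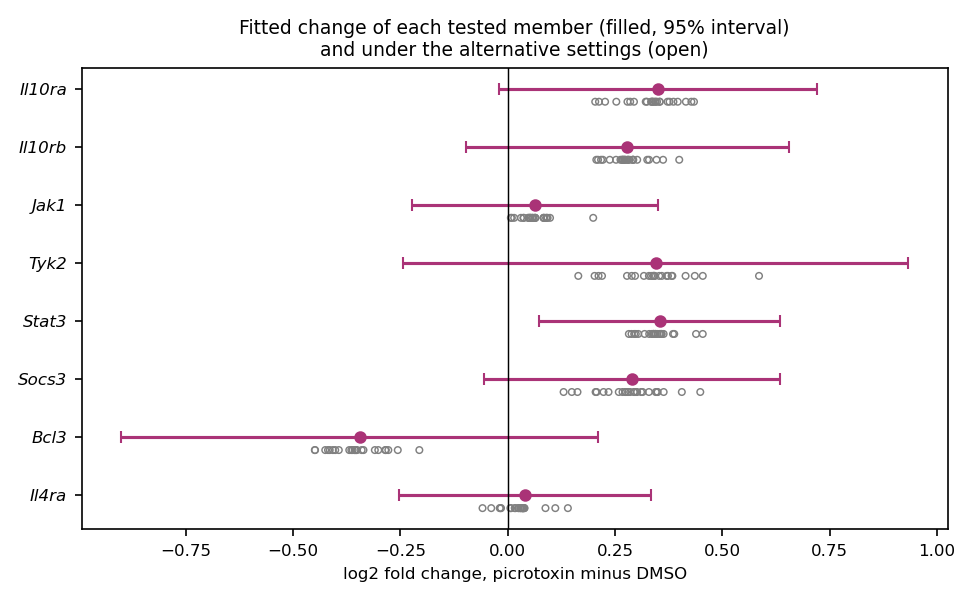
Fitted log2 fold change (picrotoxin minus DMSO) of the 8 tested members as filled points with 95% intervals from edgeR, and below each the values under the alternative settings as open points. The interval of Stat3, 0.07 to 0.63, is the one that does not reach 0, and only Il4ra has open points on both sides of 0.

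The member genes induced by IL-10 had estimates of both signs, and none passed the test. Socs3 (chr11:117966079-117970047, minus strand) had 34.4, 61.4 and 80.4 normalised molecules in the lowest, median and highest DMSO library, and 55.2, 65.5 and 89.2 in picrotoxin libraries. Its log2 fold change was 0.29 (95% interval, -0.05 to 0.63; adjusted p = 0.751 in edgeR, exact permutation p = 0.212). DMSO replicates 6, 3 and 5 lay below every picrotoxin library, and they were also the 3 libraries with the highest share of matrix transcripts. In replicates 3 to 6 alone the log2 fold change of Socs3 was 0.45 (adjusted p = 0.415 in edgeR), whereas in replicates 1 and 2 the means were 75.1 and 76.9, a log2 ratio of 0.03 with no test. With the matrix marker score as a covariate it was 0.13, without DMSO replicates 3 and 5 it was 0.15, and without DMSO replicate 6 it was 0.16. Within a library, Socs3 molecules per Stat3 molecule were 1.38 ± 0.475 in DMSO and 1.32 ± 0.328 with picrotoxin (SD, n = 6).

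**Figure D3:**
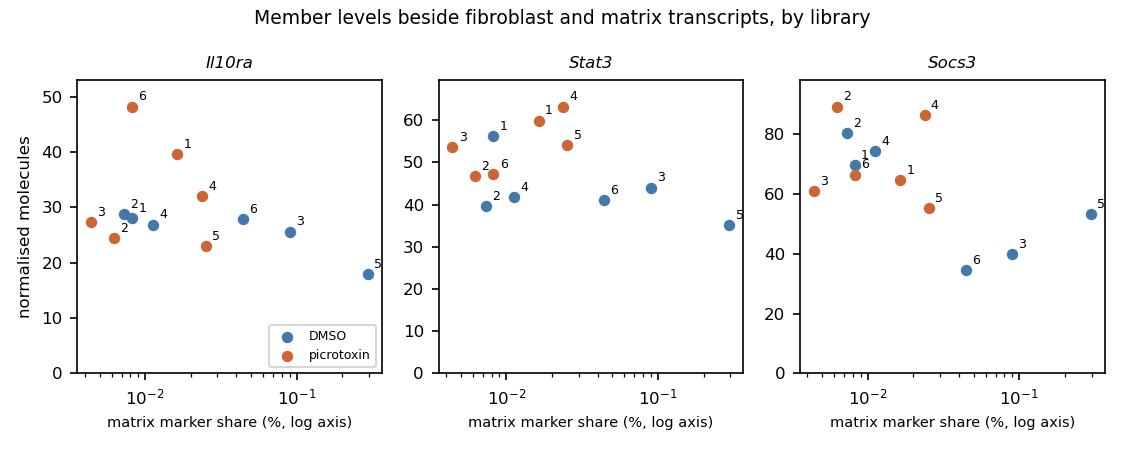
Normalised molecules of Il10ra, Stat3 and Socs3 in each library against the summed share of the 12 fibroblast and matrix markers (percent of molecules, log axis), with DMSO in blue, picrotoxin in orange and replicate numbers beside the points. The 3 libraries at the right of each panel are DMSO replicates 6, 3 and 5, which hold the lowest Socs3 values, and DMSO replicate 5 has the lowest value of Il10ra and of Stat3.

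Bcl3 encodes a nuclear IκB protein that binds NF-κB subunits at promoters. It was the member with a negative estimate. The gene (chr7:19808462-19822770, minus strand) had 6.49, 10.03 and 14.9 normalised molecules in the lowest, median and highest DMSO library, and 5.26, 8.27 and 9.56 in picrotoxin libraries. All 6 picrotoxin libraries lay below the DMSO mean, and 4 of 6 DMSO libraries lay above every picrotoxin library. Means were 10.01 ± 3.05 and 7.72 ± 1.86 (SD, n = 6), a log2 fold change of -0.35 (95% interval, -0.90 to 0.21; adjusted p = 0.819 in edgeR, exact permutation p = 0.180). Without DMSO replicate 2, the highest library, the Bcl3 estimate was -0.21, and in replicates 3 to 6 alone it was -0.29. Counts of 5 to 15 molecules lay behind these values, and an exon of Gm16175 overlaps Bcl3 on the opposite strand.

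Il4ra encodes the chain that binds IL-4 and forms receptors for IL-4 and IL-13. It (chr7:125552120-125579474, plus strand) had 47.1, 65.0 and 81.4 normalised molecules in the lowest, median and highest DMSO library, and 41.8, 69.7 and 79.6 in picrotoxin libraries. Its log2 fold change was 0.04 (95% interval, -0.25 to 0.33; adjusted p = 0.980 in edgeR, exact permutation p = 0.825), and the sign turned under 5 alternatives. The Il4ra estimate was 0.02 in replicates 3 to 6 alone, -0.06 without DMSO replicates 3 and 5, and -0.04 to 0.14 with single libraries left out. The picrotoxin libraries lay close together except replicate 6, at 41.8, which was also the library with the highest Il10ra value. An exon of Gm44876 overlaps Il4ra on the opposite strand.

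The wider pathway was described from 9 lists that hold 84 genes, each counted once and the members included. At least 1 molecule was found for 76 of them and 63 were tested. By edgeR, 0 had an adjusted p under 0.05, as by DESeq2, and 5 had an unadjusted p under 0.05, all higher with picrotoxin. These 5 were 7.94% of the 63, against 7.77% of all tested genes in either direction and 3.65% in the higher direction. By DESeq2, 2 had one, Stat3 and Nos2, against 3.82% of all tested genes. The median log2 fold change of the 63 was 0.06 and 42 were above 0 (66.7%, against 49.2% of all tested genes), which with library totals in place of TMM became 32 (50.8%, against 41.7%).

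Of the IL-10 family ligands, Il19, Il20, Il22 and Il24 had no molecule in any library. All 6 tested class II cytokine receptors, the family of Il10ra and Il10rb, had estimates above 0, with a median of 0.23, although with library totals in place of TMM 5 of 6 did. Ifnar2, a chain of the type I interferon receptor, was the gene of this family with an unadjusted p under 0.05. It had 35.9 ± 2.78 normalised molecules in the DMSO group and 44.1 ± 2.96 in the picrotoxin group (SD, n = 6), with a log2 fold change of 0.30 (adjusted p = 0.596 in edgeR, exact permutation p = 0.00216). Its groups did not overlap, with 32.3 to 39.3 in DMSO against 40.3 to 49.3 in picrotoxin libraries, as in 37 of 9580 tested genes (0.386%). Such a split by itself gives the smallest possible permutation p, so the 2 are not separate results. The unadjusted p of Ifnar2 was 0.0303 in edgeR and 0.0289 in limma-voom, but 0.0831 in DESeq2 and 0.0765 in edgeR with library totals.

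The 4 Janus kinases had estimates above 0 under TMM and under each other scaling, with a median of 0.29 under TMM and 0.24 with library totals. Jak2, which serves receptors of IL-6 type cytokines and interferon-γ, had 16.9 ± 4.14 and 23.0 ± 4.18 normalised molecules in the DMSO and picrotoxin groups (SD, n = 6), and a log2 fold change of 0.45 (adjusted p = 0.563 in edgeR, exact permutation p = 0.0325). The Jak2 estimate was 0.39 with the matrix marker score and 0.38 without DMSO replicates 3 and 5. In neither fit was its unadjusted p in edgeR under 0.05. All 6 tested STAT factors also had estimates above 0, with a median of 0.10, but 5 did with limma-voom and 3 with library totals in place of TMM. Stat3 had the largest estimate of them.

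Inhibitors of JAK and STAT signalling were mixed. Of 15 tested SOCS, PIAS and phosphatase genes, 8 had estimates above 0, and the median was 0.03. Ptpn1, a phosphatase that acts on JAK2 and TYK2, had 43.2 ± 6.32 and 52.7 ± 9.32 normalised molecules in the DMSO and picrotoxin groups (SD, n = 6), and a log2 fold change of 0.30 (adjusted p = 0.631 in edgeR, exact permutation p = 0.0606). The Ptpn1 estimate was 0.22 with the matrix marker score and 0.21 without DMSO replicates 3 and 5. In neither fit was its unadjusted p in edgeR under 0.05.

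Genes known to respond to IL-10 were about evenly divided in the main fit, and the division moved with the method. Of 17 tested genes that IL-10 induces in macrophages, 9 had estimates above 0, none had an unadjusted p under 0.05 by edgeR, and the median was 0.04. Of these 17, 12 were above 0 with limma-voom and 7 with library totals in place of TMM. The most abundant of these beside the members was Dusp1, a phosphatase of MAP kinases, at 169 ± 34.8 and 197 ± 47.4 normalised molecules (SD, n = 6), with a log2 fold change of 0.23 (adjusted p = 0.753 in edgeR, exact permutation p = 0.303). Its value moved with the libraries used, from 0.54 (adjusted p = 0.0429 in edgeR, in a fit that called 49 genes) in replicates 3 to 6 alone to 0.07 without DMSO replicates 3 and 5, and it was 0.15 with the matrix marker score, 0.13 without DMSO replicate 3 and 0.15 without picrotoxin replicate 4. Of 8 tested inflammatory genes that IL-10 represses, 4 were above 0 and the median was -0.03. With limma-voom 5 of the 8 were above 0, with a median of 0.09, and with library totals 3 were. Nos2, the inducible nitric oxide synthase, had 9.11 ± 3.20 and 14.5 ± 3.16 normalised molecules in the DMSO and picrotoxin groups (SD, n = 6), and a log2 fold change of 0.65 (adjusted p = 0.479 in edgeR, exact permutation p = 0.0216), and 6 of 6 picrotoxin libraries lay above its DMSO mean. The Nos2 estimate was 0.55 with the matrix marker score and 0.50 without DMSO replicates 3 and 5. In neither fit was its unadjusted p in edgeR under 0.05.

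**Figure D4:**
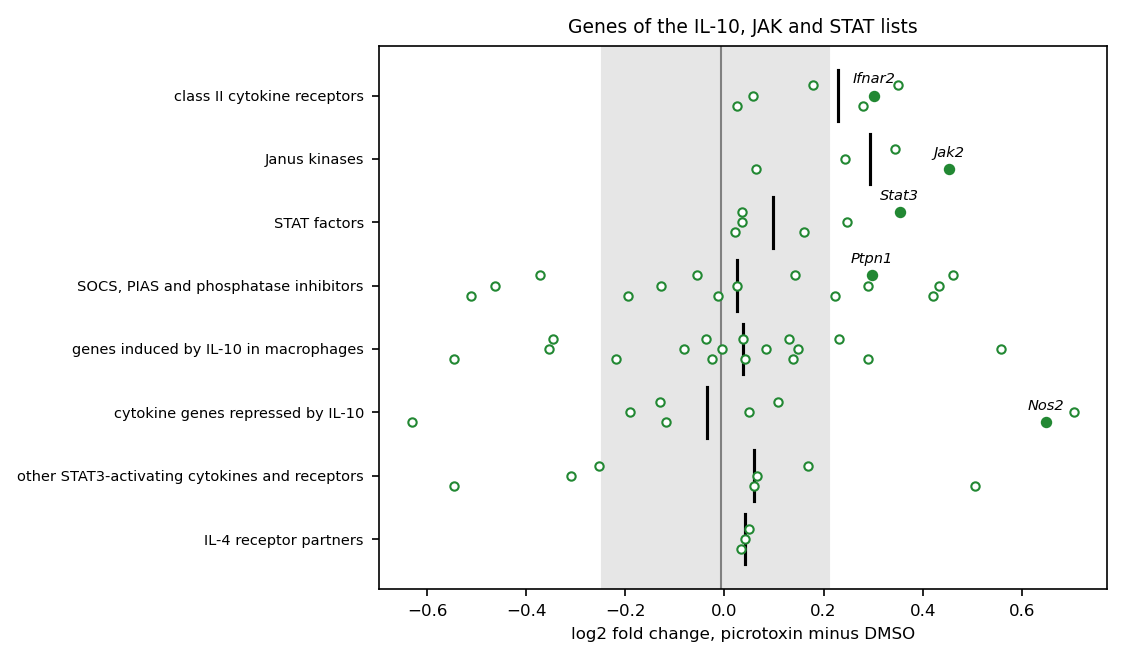
Log2 fold changes (picrotoxin minus DMSO) of the tested genes of 8 lists, with filled points for an unadjusted p under 0.05 by edgeR, a black bar at the median of each list, a grey line at the median of all tested genes and a grey band between their quartiles (-0.25 to 0.21). In this fit the tested receptors, Janus kinases and STAT factors lie above 0, of which 1 receptor and 3 STAT factors turn with library totals in place of TMM. A gene in more than 1 list is drawn in each.

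Genes of other routes to STAT3 and the partners of Il4ra had no unadjusted p under 0.05 by edgeR. Of 7 tested cytokines and receptors that activate STAT3 by other routes, 4 had estimates above 0, with a median of 0.06. Osm, which encodes oncostatin M, was the most abundant, at 19.7 ± 6.67 and 16.4 ± 5.56 normalised molecules (SD, n = 6), with a log2 fold change of -0.25 (adjusted p = 0.862 in edgeR, exact permutation p = 0.405). The Osm value was -0.43 without DMSO replicates 3 and 5, -0.10 without DMSO replicate 4, -0.16 without picrotoxin replicate 2 and -0.39 without picrotoxin replicate 3. The 3 tested genes of the IL-4 receptor list lay between 0.03 and 0.05. Il2rg, the common γ chain, had 39.3 ± 11.3 and 39.4 ± 9.05 normalised molecules in the DMSO and picrotoxin groups (SD, n = 6), and a log2 fold change of 0.03 (adjusted p = 0.985 in edgeR, exact permutation p = 0.861). Il4 and Il13 had no molecule in any library.

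Genes whose levels varied most like those of Il10ra, Stat3 and Socs3 were sought among 3740 tested genes with a mean of at least 10 normalised molecules, by Pearson's r over the 12 libraries between deviations of log2 CPM from the group means. For Il10ra these were Tor1a (r = 0.892), 1600014C10Rik (r = 0.860) and Elob (r = 0.853). For Stat3 they were Rnf126 (r = 0.846), Klf2 (r = 0.845) and Tfe3 (r = 0.839), and for Socs3 they were Mfsd1 (r = 0.893), Pi4ka (r = 0.878) and Clec4a1 (r = 0.868). The points share libraries and depth, and the values are the highest of many, so they are given as a description.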

How the data were processed

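RNA of 100 sorted cells per library was fragmented by heat, copied with a barcoded oligo-dT primer and sequenced. The authors mapped reads to mm10 with STAR and counted them against refFlat (per the paper's methods and the submitters' processing notes), and deposited raw counts, which are whole numbers of molecules for each gene symbol. The treatment of reads that map to several genes and the use of strand are not given in the sources used here. Totals ran from 201697 to 309617 molecules, and each of the 30 pairs of libraries within a group differed by more than sampling noise (chi-square per degree of freedom, 1.23 to 3.15).

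The methods assign each library to a mouse, whereas a figure text names 4 independent mice as the source of n = 6. Libraries were treated as independent, so p-values measure the spread between libraries and would be too small if some share a mouse.

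All genes with a mean above 1 normalised molecule were fitted together with edgeR 4.0.16 (quasi-likelihood, TMM, Benjamini-Hochberg adjustment, threshold 0.05). Standard errors and 95% intervals were derived from the F statistic. DESeq2 1.42.0, limma 3.58.1, other scalings and filters, terms for library sets and each library left out were alternatives. Normalised molecules were counts divided by DESeq2 size factors, log2 CPM used a prior count of 2, and the scripts were tested on simulated data. Positions are GENCODE M21 on GRCm38, the assembly named mm10, and shared segments were found with blastn 2.17.0. The members, gene lists, marker lists and tests were chosen with earlier results of these data known. Beside the members, up to 3 genes of each list were named by smallest p among those with an unadjusted p under 0.05, or else the most abundant gene. For 1 gene that this rule named, values are not reported here, and the counts of its list include it.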

Additional observations from a re-analysis of the deposited data

Results flagged for a closer look

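In 3 of 17 groups of 6 libraries examined, 1 library stood far from the others by Dixon's criterion, and chance flags about 1 in 20 groups of continuous values. Il10 had 2.93 normalised molecules in DMSO replicate 6, where the other 5 DMSO libraries had 0, and a single value above 0 beside zeros meets this criterion by construction, so that rate does not apply to it. Il10ra had 18.0 normalised molecules in DMSO replicate 5, where the next DMSO library had 25.6 and the highest 28.8, and this library also held the most matrix transcripts (820 molecules). Il4ra had 41.8 normalised molecules in picrotoxin replicate 6, where the next picrotoxin library had 68.2 and the highest 79.6. The part of library quality or cell makeup in these values was not tested.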

How the results depend on the processing

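No tested member reached an adjusted p under 0.05 under any alternative run, and 193 of 198 alternative values kept the sign. The other 5 were of Il4ra: -0.016 with library totals in place of TMM, -0.019 with the matrix score as covariate, -0.059 with DMSO replicates 3 and 5 both left out, -0.039 without DMSO replicate 3 and -0.017 without picrotoxin replicate 2. With single libraries left out the Il4ra value ran from -0.039 to 0.14. Il2rg turned to -0.021 with library totals, to -0.054 with the matrix score and ran from -0.10 to 0.19 with single libraries left out. Over all alternatives the log2 fold change of Stat3 ran from 0.28 to 0.45, with an unadjusted p under 0.05 in 23 of 25. That of Il10ra ran from 0.20 to 0.43, and that of Socs3 from 0.13 to 0.45. Members with an unadjusted p under 0.05 numbered 2 (Stat3 and Socs3) without a filter, in replicates 3 to 6 alone and under the replicate block, 0 with the matrix score or without DMSO replicates 3 and 5, and 1 to 2 with single libraries left out. Without a filter Il10 also had an unadjusted p under 0.05 in edgeR (adjusted p = 0.547), from its 4 molecules. Of the 63 pathway genes, an unadjusted p under 0.05 was reached by 2 with DESeq2, 8 in replicates 3 to 6, 2 with the matrix score, 1 without DMSO replicates 3 and 5, and 2 (without DMSO replicate 1) to 9 (without DMSO replicate 2) with single libraries left out. Dusp1 was the 1 pathway gene called in replicates 3 to 6. Genes called over the whole table, 5 in the report, numbered 2 with DESeq2, 3 with limma-voom, 13 with library totals, 81 without a filter, 27 with the library sets as a term, 49 in replicates 3 to 6, 0 with the matrix score, 1 without DMSO replicates 3 and 5, and 0 to 25 with single libraries left out. The cause of these shifts was not tested. Libraries of the same number did not deviate together in every pair (r from -0.005 to 0.126, above 0.1 in 1 of 6). Their mean r was 0.053, against -0.011 for DMSO and picrotoxin libraries of unlike number. Equal numbers were not read as pairs, although these values do not show that the numbers are unrelated. With the replicate block 43 genes were called, and 2 of 6 DMSO libraries correlated best with their own number. Depth limits Il10, Tyk2 and Bcl3, which had at most 15 molecules in a library.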
